A study of Rattus norvegicus with 4 samples.

Results

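Cell cycle inhibitors and pocket proteins were followed in cultured rat heart muscle cells that had been given an adenovirus, a viral gene carrier, encoding Pdk3 or a mock vector. The set was defined by gene name and has 10 members, the CIP/KIP inhibitor genes Cdkn1a, Cdkn1b and Cdkn1c, the INK4 inhibitor genes Cdkn2b, Cdkn2c and Cdkn2d, the pocket protein genes Rb1, Rbl1 and Rbl2, and the antiproliferative gene Btg2. Of these, 9 had a row among the 16290 genes of the deposited table, and all 9 entered the test with 12838 genes in all. The expression of Cdkn2d was not analysed here.

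The libraries were made from neonatal cardiomyocytes of postnatal day 3, cultured in medium with horse serum. There were 2 libraries of cells given the Pdk3 vector (Pdk3 1 and Pdk3 2) and 2 of cells given the mock vector (Mock 1 and Mock 2). Both groups therefore carried an adenovirus. The labels name no strain, promoter, virus dose or time after infection. They do not say whether the libraries of a group came from separate cultures, and the spread behind each p-value may therefore be technical. Going by its title, the series asks how glycolysis and the pyruvate dehydrogenase complex bear on the proliferation of heart muscle cells.

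A cell passes from G1 into S phase when cyclin-dependent kinases phosphorylate the pocket proteins, which then release the E2F transcription factors they hold. CIP/KIP proteins bind cyclin and kinase complexes, chiefly those with Cdk2, and INK4 proteins bind Cdk4 and Cdk6 and keep D cyclins from them. Rat cardiomyocytes leave the cell cycle around birth, and inhibitors and pocket proteins are part of that exit.

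Pdk3, a kinase that inhibits the pyruvate dehydrogenase complex, had normalised read counts of 1218 and 1177 in Pdk3 1 and Pdk3 2, against 396 and 411 in Mock 1 and Mock 2, as the labels say. Normalised counts summed to 4448199 to 4476649 per library, which corresponds to about 4139110 to 4707141 reads in genes when the scaling is multiplied back. The libraries of a pair differed by less than counting noise, with a mean chi-square per gene of 0.568 between the Pdk3 libraries and 0.581 between the mock libraries. The labels list them as separate samples and they were kept as such. Because limma then works with a spread below counting noise, each member's call is also given with its p floored at counting noise. The floor takes the larger of limma's p and an exact binomial p of the summed reads. Floored values are given for part of the listed genes and for none of the cell type markers. Cardiomyocyte markers were present in every library, with 7 genes summing to 20227 and 19917 in the Pdk3 libraries and to 19605 and 19420 in the mock libraries. The largest part was Ryr2, with 6970 and 6927 in the Pdk3 libraries, against 7255 and 7253 in the mock libraries. Tnni3 had 625 and 608 in the Pdk3 libraries, against 583 and 575 in the mock libraries. The highest value of any gene was 7809 to 8169 per library. Of these 7 genes 4 passed as higher (Myh6, Myh7, Actn2 and Nppa) and 1 as lower (Ryr2), with log2 fold changes of -0.062 to 0.12 over the 7 genes. Markers of other cell types were present as well.

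In the cells given Pdk3, the pocket protein gene Rbl1 rose 1.92-fold and the INK4 gene Cdkn2c 2.08-fold, the CIP/KIP genes Cdkn1b and Cdkn1c and the antiproliferative gene Btg2 were slightly lower, and Cdkn1a, Cdkn2b, Rb1 and Rbl2 did not pass the test. So 2 of 9 members rose and 3 of 9 fell at an adjusted p under 0.05 (limma, Benjamini-Hochberg over all genes tested). Of all genes tested 22.9% passed, 11.7% as higher and 11.3% as lower in the Pdk3 libraries. With p floored at counting noise the members' counts were 2 higher and 0 lower, while 15.8% of all genes tested passed, 8.39% as higher and 7.45% as lower. The median log2 fold change of the 9 members was -0.054, and that of all genes tested was -0.0072. In 7 of the 9 members the values of the groups did not overlap, 3 with Pdk3 above and 4 with Pdk3 below mock, and among all genes tested 61.0% had groups that did not overlap, 29.9% with Pdk3 above and 31.1% with Pdk3 below.

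**Figure D1:**
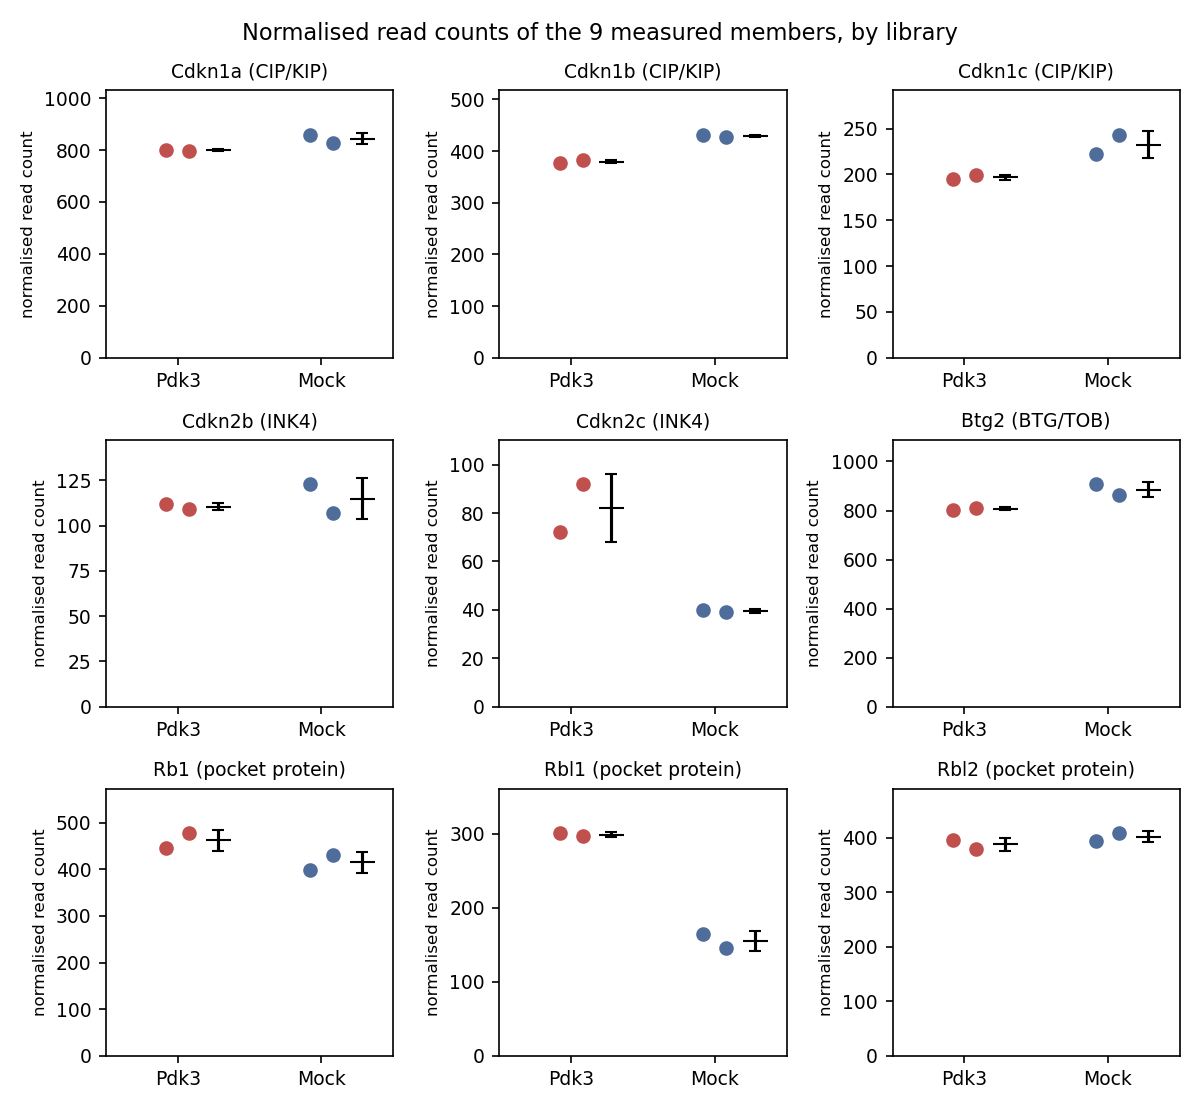
Normalised read counts (y axis, from 0) of each measured member in the Pdk3 libraries (left, red) and the mock libraries (right, blue); points are libraries, and the black bars beside them are the mean and SD over 2 libraries. Rbl1 had 301 and 297 in the Pdk3 libraries, against 165 and 146 in the mock libraries, and Cdkn2c had 72 and 92 in the Pdk3 libraries, against 40 and 39 in the mock libraries, while the other members lay close together.

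Rbl1 encodes p107, a pocket protein that binds repressive E2F factors and is itself made mostly in cycling cells. It (ENSRNOG00000006921, chromosome 3, 153263692 to 153321352, minus strand, build rn6 as for all positions of genes here) counted 301 and 297 in the Pdk3 libraries, against 165 and 146 in the mock libraries. Both Pdk3 values lay far above both mock values. The mean was 299.0 ± 2.83 in the Pdk3 libraries and 155.5 ± 13.4 in the mock libraries (SD, n = 2 each), and the 1.92-fold rise had a 95% counting interval of 1.68 to 2.22. The log2 fold change was 0.94 ± 0.072 (SE), with a limma adjusted p of 0.000153, which the floor at counting noise did not alter.

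Rb1, the retinoblastoma gene and founding member of the family, (ENSRNOG00000016029, chromosome 15, 55083140 to 55209342, minus strand) counted 446 and 478 in the Pdk3 libraries, against 399 and 431 in the mock libraries. The Pdk3 values stood above the mock values, but the gap between the nearest of them was smaller than the distance within either pair. Its log2 fold change of 0.15 ± 0.053 did not pass (limma, adjusted p = 0.0735). It passed as higher with TMM scaling (0.0297), with a minimum of 50 (0.0288) and with the replicate number as a block (0.0371). The log2 fold change was 0.068 when scaled to ribosomal protein genes and 0.099 to 0.21 without any 1 library, the lowest without Mock 1.

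Rbl2 encodes p130, the pocket protein typical of resting cells, where it forms a repressive complex with E2F4 and the MuvB core. It (ENSRNOG00000012153, chromosome 19, 17300089 to 17346808, minus strand) counted 397 and 379 in the Pdk3 libraries, against 395 and 409 in the mock libraries. The groups overlapped, and the 95% interval of its log2 fold change reached from -0.15 to 0.051 (limma, adjusted p = 0.446).

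The balance within the family can be read inside each library, where scaling between libraries cancels. Rbl1 made up 26.3% and 25.7% of the summed pocket protein counts in the Pdk3 libraries, against 17.2% and 14.8% in the mock libraries. The share of Rbl2 was 34.7% and 32.8% in the Pdk3 libraries, against 41.2% and 41.5% in the mock libraries. A rise of Rbl1 alone lowers the shares of the other 2 genes, and the counts of Rbl2 themselves overlapped between the groups. Transcript length also sets these shares, so they are no shares of molecules. The log2 ratio of Rbl1 to Rbl2 was -0.40 and -0.35 in the Pdk3 libraries, against -1.25 and -1.48 in the mock libraries, a difference of 0.99. The log2 ratio of Rbl1 to Rb1 differed by 0.79. For either ratio all Pdk3 values lay above all mock values, and the exact two-sided permutation p was 0.333, the smallest that 2 against 2 libraries allow. The summed counts of the 3 genes were 1144 and 1154 in the Pdk3 libraries, against 959 and 986 in the mock libraries, or 18.1% higher.

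**Figure D2:**
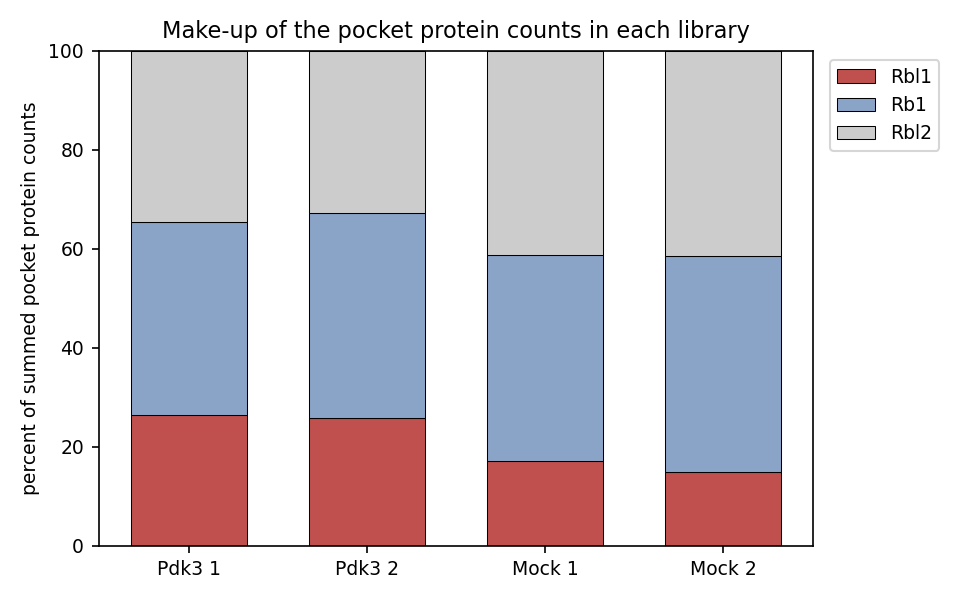
Make-up of the summed normalised counts of the pocket protein genes in each library, in percent (y axis), with the Pdk3 libraries on the left and the mock libraries on the right. The Rbl1 segment (red) was 26.3% and 25.7% in the Pdk3 libraries and 17.2% and 14.8% in the mock libraries, and a larger Rbl1 segment leaves smaller ones for Rb1 and Rbl2.

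Cdkn2c encodes p18, an INK4 inhibitor of Cdk4 and Cdk6. It (ENSRNOG00000008956, chromosome 5, 129347732 to 129352886, minus strand) counted 72 and 92 in the Pdk3 libraries, against 40 and 39 in the mock libraries. The Pdk3 libraries differed from each other more than the mock libraries did, and the lower of them still stood well above both mock values. The mean was 82.0 ± 14.1 in the Pdk3 libraries and 39.5 ± 0.707 in the mock libraries (SD, n = 2 each), and the 2.08-fold rise had a 95% counting interval of 1.596 to 2.777. The log2 fold change was 1.02 ± 0.15 (limma, adjusted p = 0.00341, and 0.00348 floored at counting noise).

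Cdkn2b, which encodes the INK4 inhibitor p15, a gene induced by TGF-beta in many cell types, (ENSRNOG00000006735, chromosome 5, 107845951 to 107858104, minus strand) counted 112 and 109 in the Pdk3 libraries, against 123 and 107 in the mock libraries. The Pdk3 values lay between the mock values. Its log2 fold change was -0.054, with a 95% interval of -0.29 to 0.18 (limma, adjusted p = 0.737), and it turned to 0.046 without Mock 1. Its neighbour Cdkn2a, the locus of p16 and p19ARF, was low, with 13 and 15 in the Pdk3 libraries, against 19 and 20 in the mock libraries, and did not pass (limma, adjusted p = 0.213).

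The sequences around the starts of the pocket protein genes and of Cdkn2c are shown because 2 of these 4 genes rose and E2F sites are known in the promoters of human RB1 and RBL1. They are RefSeq windows of 300 bases on build GRCr8, from 250 bases before to 50 bases after the annotated start, read on the gene's strand, which is the minus strand for all 4 genes. The windows are chr3:166289327-166289626 for Rbl1, chr15:54911808-54912107 for Rb1, chr19:32096362-32096661 for Rbl2 and chr5:129644842-129645141 for Cdkn2c. Capitals mark matches, on either strand, to the E2F forms TTTCCCGC, TTTCGCGC, TTTGGCGC and TTTGCCGC, to a second E2F form, TTCCCGCC, and to the CHR forms TTTGAA and TTCGAA, the CHR being an element bound by MuvB complexes. TTTCCCGC and TTCCCGCC can overlap.

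Rbl1: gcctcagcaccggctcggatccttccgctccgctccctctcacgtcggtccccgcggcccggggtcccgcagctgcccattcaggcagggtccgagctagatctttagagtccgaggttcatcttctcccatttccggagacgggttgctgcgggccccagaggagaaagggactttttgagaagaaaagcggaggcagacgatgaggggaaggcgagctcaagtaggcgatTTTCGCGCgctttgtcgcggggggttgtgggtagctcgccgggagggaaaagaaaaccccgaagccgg

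Rb1: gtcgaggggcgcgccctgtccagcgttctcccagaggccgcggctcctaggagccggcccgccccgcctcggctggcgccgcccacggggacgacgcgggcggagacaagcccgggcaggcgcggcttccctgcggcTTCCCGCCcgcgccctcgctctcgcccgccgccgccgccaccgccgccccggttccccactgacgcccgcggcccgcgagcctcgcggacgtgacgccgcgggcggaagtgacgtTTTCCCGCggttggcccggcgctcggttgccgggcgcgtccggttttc

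Rbl2: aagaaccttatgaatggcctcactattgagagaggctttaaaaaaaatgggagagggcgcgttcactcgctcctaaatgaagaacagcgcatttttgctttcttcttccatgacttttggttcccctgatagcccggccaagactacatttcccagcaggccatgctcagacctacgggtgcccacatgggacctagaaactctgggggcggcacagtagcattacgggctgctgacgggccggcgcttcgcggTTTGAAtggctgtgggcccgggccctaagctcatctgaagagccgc

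Cdkn2c: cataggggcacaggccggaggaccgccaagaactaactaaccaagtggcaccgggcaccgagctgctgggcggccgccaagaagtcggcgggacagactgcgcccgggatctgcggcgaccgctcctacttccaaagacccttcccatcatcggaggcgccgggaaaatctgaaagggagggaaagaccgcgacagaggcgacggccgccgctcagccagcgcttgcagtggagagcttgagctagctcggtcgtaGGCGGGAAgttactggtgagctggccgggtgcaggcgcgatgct

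Rbl1 held TTTCGCGC with its first base 18 bases before the start. Rb1 held TTTCCCGC just after the start, beginning at base 3, and TTCCCGCC beginning 113 bases before it. Cdkn2c held TTCCCGCC on the opposite strand, beginning at base 7 after the start, a form that was added to the search after the sequences had been read. Rbl2 held no E2F form in its window and TTTGAA at base 5 after the start. Windows were at hand for 9 of the 10 listed members, all but Cdkn1c, and Cdkn1a, Cdkn1b, Cdkn2b, Cdkn2d and Btg2 held no E2F form. Only the first listed start of each member was searched, so the windows say nothing of any other start these genes use. Cdkn2b held TTTGAA. Over 33469 RefSeq windows of the same length, 3.57% held any of the 5 E2F forms and 19.7% held a CHR form. Without the added form TTCCCGCC, through which alone Cdkn2c matched, the E2F share was 2.14%, and TTCCCGCC itself was in 1.91%. The windows of Rbl1, Rb1 and Cdkn2c had a GC content of 63%, 79.7% and 65.3%, against a median of 51.7% over all windows, and the part of base composition in the matches was not tested. A match is a description of the letters and no evidence that a factor was bound.

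All 3 CIP/KIP genes had lower means in the Pdk3 libraries, and 2 of them passed the test. Cdkn1a, which encodes p21, (ENSRNOG00000000521, chromosome 20, 6351458 to 6358864, plus strand) counted 802 and 798 in the Pdk3 libraries, against 858 and 828 in the mock libraries. The groups did not overlap, yet the gap between them was smaller than the distance between the mock libraries. Its log2 fold change of -0.075 ± 0.029 did not pass (limma, adjusted p = 0.105, and 0.365 floored at counting noise).

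Cdkn1b encodes p27, which holds cyclin E and Cdk2 inactive in resting cells. It (ENSRNOG00000007249, chromosome 4, 168689163 to 168693964, plus strand) counted 377 and 382 in the Pdk3 libraries, against 431 and 428 in the mock libraries. Libraries of a group were nearly equal and the groups were well apart. It fell by 0.18 ± 0.038 on the log2 scale, or 0.884-fold (limma, adjusted p = 0.0149). Floored at counting noise its adjusted p was 0.0808. Over the alternatives that kept all 4 libraries it lay between 0.000383 and 0.0808.

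Cdkn1c encodes p57, an inhibitor expressed from the maternal allele in mice and humans and linked to differentiation. It (ENSRNOG00000059500, chromosome 1, 216661080 to 216663721, minus strand) counted 195 and 199 in the Pdk3 libraries, against 222 and 243 in the mock libraries. The mock libraries were the more uneven pair, and both lay above the Pdk3 values. It fell by 0.24 ± 0.066 on the log2 scale, or 0.847-fold (limma, adjusted p = 0.0387). Floored at counting noise its adjusted p was 0.0846, and over the alternatives that kept all 4 libraries it ran from 0.00248 to 0.114.

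Btg2 belongs to the BTG/TOB family, whose proteins speed the removal of poly(A) tails from messenger RNA, and it is an immediate early gene. It (ENSRNOG00000003300, chromosome 13, 50913180 to 50916982, minus strand) counted 804 and 811 in the Pdk3 libraries, against 908 and 863 in the mock libraries. The mock libraries were again the more uneven pair, and the groups did not overlap. It fell by 0.13 ± 0.032 on the log2 scale, or 0.912-fold (limma, adjusted p = 0.0226). Its adjusted p was 0.0517 floored at counting noise and 7.76e-05 to 0.167 over the alternatives that kept all 4 libraries.

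**Figure D3:**
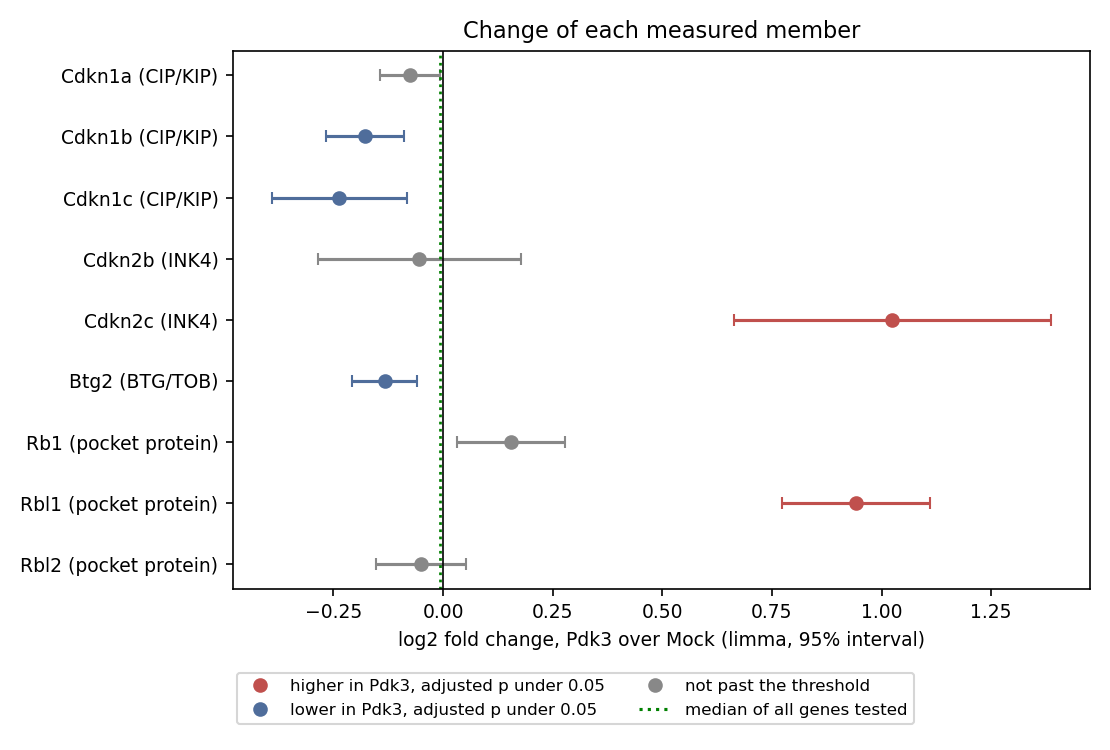
Log2 fold change of each measured member, Pdk3 over mock (x axis), with the 95% interval from limma; red and blue mark members higher and lower at an adjusted p under 0.05, grey those not past it, and the dotted line the median of all genes tested. Cdkn2c at 1.02 and Rbl1 at 0.94 stand apart to the right, and the lowest, Cdkn1c, is at -0.24.

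The summed CIP/KIP counts were 1374 and 1379 in the Pdk3 libraries, against 1511 and 1499 in the mock libraries, or 0.915-fold. The summed counts of the D cyclins, the partners of Cdk4 and Cdk6, were 2147 and 2121 in the Pdk3 libraries, against 2041 and 2020 in the mock libraries. Within a library, the log2 ratio of the CIP/KIP sum to the D cyclin sum was -0.64 and -0.62 in the Pdk3 libraries, against -0.43 and -0.43 in the mock libraries. That is a difference of -0.20, with an exact two-sided permutation p of 0.333, the smallest possible here. It is larger than the distance between libraries of a group, but libraries of a pair differed by less than counting noise. No counting interval was made for this ratio. The log2 ratio of Cdkn1a to Cdkn1b was 1.09 and 1.06 in the Pdk3 libraries, against 0.99 and 0.95 in the mock libraries.

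The size of the small falls depends on the scaling between libraries. When the median ribosomal protein gene was set level, Cdkn1a and Rbl2 passed as lower too, with log2 fold changes of -0.16 and -0.14 (limma, adjusted p = 0.00112 and 0.0437), and the members' counts were 2 higher and 5 lower. Over all genes tested, that scaling gave 926 higher and 3552 lower, and 1496 higher and 1449 lower passed with the authors' scaling. Rbl1 and Cdkn2c passed under each of the 9 alternatives that kept all 4 libraries, with adjusted p up to 0.0255 and 0.0475. The 3 falls did not pass without an intensity trend (limma, adjusted p = 0.0807 for Cdkn1b, 0.114 for Cdkn1c and 0.167 for Btg2), nor did those of Cdkn1c and Btg2 without a filter on low values (0.103 and 0.0929). With any 1 library left out, the spread rests on the 1 pair that remains, which is too little to judge a call. Only log2 fold changes are therefore given for those fits. They were 0.85 to 1.03 for Rbl1 and 0.85 to 1.20 for Cdkn2c.

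Some markers of other cell types passed the test as well, where 11.3% of all genes tested fell and 11.7% rose. Of 7 macrophage and leukocyte markers 4 fell, with sums of 795 and 784 in the Pdk3 libraries, against 1010 and 973 in the mock libraries, and 0 of them were at 0. Of 5 measured endothelial markers 2 fell, with sums of 882 and 868 in the Pdk3 libraries, against 929 and 967 in the mock libraries. The largest part was Kdr, with 536 and 527 in the Pdk3 libraries, against 467 and 502 in the mock libraries, and it did not pass. Cdh5 and Tie1, which fell, had log2 fold changes of -0.52 and -0.39. Tek and Emcn, at -0.34 and -0.29, did not pass. Fibroblast markers summed to 3875 and 3743 in the Pdk3 libraries, against 3940 and 3881 in the mock libraries, with 1 of 6 lower. Of 5 smooth muscle markers 3 rose, with sums of 3552 and 3525 in the Pdk3 libraries, against 3087 and 3143 in the mock libraries. Epicardial and mesothelial markers summed to 200 and 175 in the Pdk3 libraries, against 206 and 209 in the mock libraries. Of these 6 markers Upk3b was too low to be tested and 1 fell. That was Krt19, with 30 and 35 in the Pdk3 libraries, against 66 and 63 in the mock libraries. Wt1, Msln, Upk1b and Aldh1a2 had log2 fold changes of 0.44, 0.089, 0.18 and -0.095 and did not pass. The part of these cells in the values of the inhibitors was not tested. In these bulk libraries fewer cells of a type and less RNA per cell cannot be told apart.

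Around the members, the cyclins and kinases of G1 and S phase were compared next, together with genes that activate them (the Cdk7, Ccnh and Mnat1 genes of the CDK-activating kinase and the phosphatase gene Cdc25a). Of these 13 genes 7 rose and 0 fell, with a median log2 fold change of 0.18. Of all genes tested 11.7% rose and 11.3% fell. This list, like the others, was chosen with earlier results of these data known. Ccne2 and Ccne1, the E cyclins that activate Cdk2, rose 3.38-fold (488 and 526 in the Pdk3 libraries, against 145 and 155 in the mock libraries) and 2.28-fold (305 and 355 in the Pdk3 libraries, against 138 and 151 in the mock libraries). Ccna2, the S phase cyclin, rose 1.91-fold and Cdk2 1.42-fold. The limma adjusted p of these 4 genes was 0.000348 at most. Among the D cyclins, Ccnd1 had 798 and 802 in the Pdk3 libraries, against 800 and 751 in the mock libraries (limma, adjusted p = 0.397), and Ccnd3 did not pass either (0.181). Ccnd2 passed with a log2 fold change of 0.11 (0.0485), a call that ended when floored at counting noise (0.224). With that floor 5 of the 13 genes rose, against 8.39% of all genes tested.

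Of 9 measured genes of the E2F and DP family, some of whose products the pocket proteins bind, 7 rose and 0 fell, with a median of 0.36. When floored at counting noise 6 rose. Of all genes tested 11.7% rose, and 8.39% did when floored. The 7 that rose without the floor include E2f6, E2f7 and E2f8, whose products act without pocket proteins. E2f7 and E2f8, atypical repressors, rose 4.16-fold and 3.92-fold, and the activator E2f2 rose 3.22-fold, with 98 and 118 in the Pdk3 libraries, against 34 and 33 in the mock libraries. Tfdp1, the common DP partner, rose 1.28-fold. E2f4, the chief partner of p107 and p130, counted 256 and 247 in the Pdk3 libraries, against 254 and 256 in the mock libraries (limma, adjusted p = 0.816). E2f1 was not analysed here. A list of 14 E2F target genes of S phase was chosen with earlier results of these data known, so its count is no independent result. Against 11.7% of all genes tested, all 14 rose, with log2 fold changes of 0.37 to 1.97 and a median of 0.95. Among them Mcm5, Mcm3 and Mcm2, subunits of the replicative helicase, rose 2.77-fold, 2.37-fold and 2.02-fold, and Uhrf1, a factor of DNA methylation upkeep, rose 3.26-fold.

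p107 and p130 join E2F4, DP and the MuvB core in the DREAM complex, and the core later binds Mybl2 and Foxm1 to switch on genes of G2 and mitosis. Of 7 genes of the core and its activators 3 rose, with or without the floor at counting noise. Of all genes tested 11.7% rose without the floor and 8.39% with it. Mybl2 rose 2.61-fold, with 410 and 392 in the Pdk3 libraries, against 169 and 138 in the mock libraries. Foxm1 rose 1.94-fold, and of the core genes Lin54, the DNA-binding subunit, rose 1.54-fold. The other 4 core genes, Lin9, Lin37, Lin52 and Rbbp4, had log2 fold changes of 0.39, -0.061, 0.30 and 0.17 and did not pass.

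**Figure D4:**
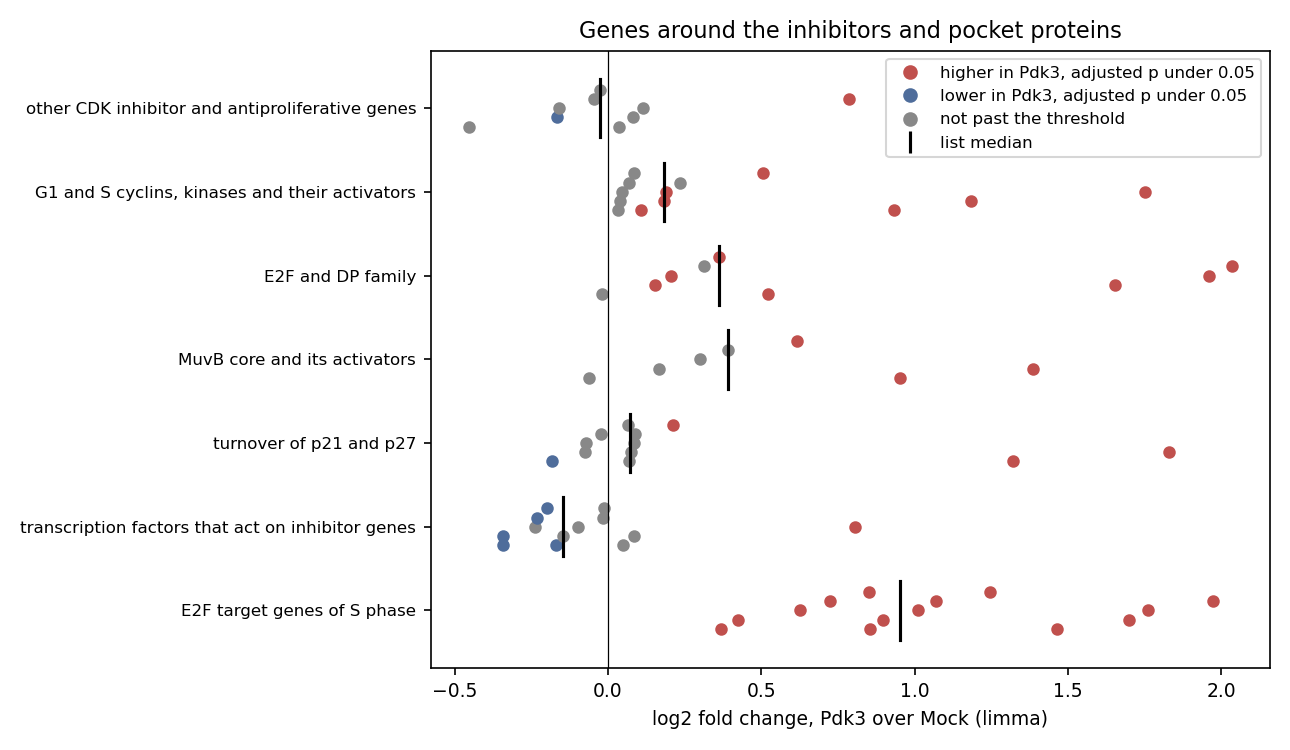
Log2 fold change, Pdk3 over mock (x axis), of each tested gene of 7 lists (rows); red and blue mark genes higher and lower at an adjusted p under 0.05, grey those not past it, and black ticks the list medians. All 14 E2F target genes lie to the right of 0, and the transcription factor list has 5 genes lower and 1 higher. Of all genes tested 11.3% were lower and 11.7% higher. The lists were chosen with earlier results of these data known.

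Proteins p21 and p27 are also controlled by degradation, which messenger counts do not show. Of 12 genes of that machinery 3 rose and 1 fell, and 2 rose and 0 fell when floored at counting noise. Over all genes tested 11.7% rose and 11.3% fell, and 8.39% and 7.45% did when floored, so these counts are not far from those shares. Skp2, the F-box protein that marks p27 for destruction, rose 2.50-fold, with 178 and 185 in the Pdk3 libraries, against 64 and 81 in the mock libraries. Dtl, the adaptor through which the Cul4 ligase marks p21 and Cdt1 in S phase, rose 3.58-fold, with 262 and 272 in the Pdk3 libraries, against 70 and 79 in the mock libraries. The log2 fold change of Cks1b, the cofactor of Skp2, was 0.21 (limma, adjusted p = 0.0479), and that of Cul4b was -0.18 (0.0106). Floored at counting noise both calls ended (0.136 and 0.0514).

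Of 13 transcription factor and chromatin genes known to act on inhibitor genes 5 fell and 1 rose. Over all genes tested 11.3% fell and 11.7% rose. Floored at counting noise 3 of the list fell and 1 rose, against 7.45% and 8.39% of all genes tested. The FoxO genes of the list, whose products switch on Cdkn1b, were all lower in the Pdk3 libraries. Foxo4 had 514 and 526 in the Pdk3 libraries, against 661 and 657 in the mock libraries, and its log2 fold change was -0.34 ± 0.032 (limma, adjusted p = 0.000369). Foxo1 had 157 and 157 in the Pdk3 libraries, against 195 and 204 in the mock libraries (log2 fold change -0.34, adjusted p = 0.00955), and Foxo3 had 360 and 356 in the Pdk3 libraries, against 443 and 400 in the mock libraries (-0.23, 0.0202). These 3 calls held when floored at counting noise, with Foxo3 at 0.0242, although that of Foxo3 ended without a trend (0.129) and without a filter (0.104). The calls of Meis1 (log2 fold change -0.20, limma adjusted p = 0.0315) and Smad3 (-0.17, 0.034) ended when floored at counting noise, at 0.0702 and 0.0911. Ezh2, the Polycomb enzyme that silences the Cdkn2a and Cdkn2b locus, rose 1.75-fold, with 397 and 458 in the Pdk3 libraries, against 224 and 265 in the mock libraries (limma, adjusted p = 0.000999, and 0.0573 without a trend).

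Of 9 further inhibitor and antiproliferative genes 1 rose and 1 fell, near the 11.7% and 11.3% of all genes tested. Cdkn3, which despite its name encodes a phosphatase of Cdk2 found in cycling cells, rose 1.73-fold, with 168 and 164 in the Pdk3 libraries, against 102 and 90 in the mock libraries. Tob1, a relative of Btg2, had 496 and 479 in the Pdk3 libraries, against 545 and 550 in the mock libraries, with -0.17 as its log2 fold change (limma, adjusted p = 0.0142, and 0.0561 floored at counting noise). Btg1 and Btg3 did not pass, at -0.046 and 0.11. Over the KEGG term for the cell cycle given in the deposited table, which holds 8 of the measured members, 49 of 112 tested genes rose and 7 fell, with a median of 0.11.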

How the data were processed

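Per the submitters' processing notes, the authors used FastQC, Trimmomatic 0.39, STAR 2.6.1d, featureCounts 1.6.5 and DESeq2 1.26.0 with build rn6, and the labels' protocols name a stranded mRNA library. The strand setting, gene filter and duplicate handling are not given in the sources used, so reads of overlapping genes cannot be assigned with certainty. The deposited values are used as a score: normalised read counts rounded to whole numbers, not raw counts. Gaps and doublings among these whole numbers gave scaling factors of 0.9246 and 0.9627 (Pdk3 1 and Pdk3 2) and 1.0255 and 1.0567 (Mock 1 and Mock 2), used to return to reads for counting intervals and the binomial floor. Those intervals cover counting error only.

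Values were tested as log2(value + 1) with limma 3.58.1 in R 4.3.3 (eBayes with a trend, group as the single term, two-sided), for genes that reached 10 in 2 or more libraries. This scale understates the change of low genes. Errors of log2 fold changes are limma's standard errors.

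Members and lists were chosen with earlier results of these data known. Named are all members and, by smallest p among the genes that passed in each list, at most 4 in the direction that more genes took and at most 2 in the opposite one. E2f4, E2f6, Cdc25a, Cdk7, Ccnh, Mnat1, Cdkn2a, Smad3, Btg1 and Btg3 are named outside that rule, after their values were seen. So are the named markers of all cell types, the D cyclins, and those MuvB core genes that did not pass. 1 list and 1 gene of another are not reported here. List counts are descriptions with no set test. The alternatives tried were TMM scaling, scaling to ribosomal protein genes, a replicate block, leaving out each library, no filter, a minimum of 50, pseudocounts of 0.5 and 8, no trend, and the floor at counting noise.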

Additional observations from a re-analysis of the deposited data

How the results depend on the processing

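Of the 9 measured members, 8 kept their direction under all 13 alternatives, and Cdkn2b ranged from -0.15 to 0.046 without any 1 library, above 0 without Mock 1. Leaving out any 1 library leaves 1 library in a group, so those fits cannot judge a call, and only their direction and size are used. Lower members numbered 5 when scaled to ribosomal protein genes (926 genes higher and 3552 lower in all), 1 without a filter (737 and 539), 0 without a trend (526 and 325) and 0 floored at counting noise (1077 and 957). The cause was not tested. With the replicate number as a block, 3 members were higher and 3 lower (1374 and 1298 genes in all), the added one being Rb1 (limma, adjusted p = 0.0371). Deviations of libraries with the same number correlated at 0.0384 over 12838 genes, so the numbers are not taken to pair the libraries. Rb1 also passed with TMM scaling (0.0297) and with a minimum of 50 (0.0288). Over the members and listed genes chosen by rule, calls ended for 7 genes floored at counting noise, 6 without a filter, 9 without a trend, 2 with the block and 1 when scaled to ribosomal protein genes. The 95% counting interval of the fold change held 1 for Cdkn1a, Cdkn2b and Rbl2. With the authors' scaling, their fold changes were therefore not told apart from 1 beyond counting error.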
